A study of Rattus norvegicus with 55 samples.

Results

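Kidney RNA of 2 groups of rats was compared on 21 of the 55 Affymetrix arrays of the series. The first group is 11 arrays whose description names no developmental stage (called here no stage word). The second is 10 arrays described as immature kidney. All 21 carry the same title, SHR kidney, and the same wording that the rats were Wistar-derived, so strain and tissue are shared by both groups as far as the labels go, and total RNA was measured. The labels give no age, sex, diet or treatment, and no animal is named for any array. The p-values below therefore measure only how these arrays spread, which may be technical.

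The 21 arrays were chosen by 1 measured value, an intensity below 600 of a probe set of RT1-Bb, the beta chain of the rat class II molecule RT1.B. The rule kept 11 of 14 arrays with no stage word and 10 of 13 immature arrays. This probe set read 104.8 to 247 on the 11 arrays with no stage word and 88.8 to 196.0 on the 10 immature arrays. Over all 55 arrays the highest value inside the limit was 263.0 and the lowest outside it was 1411.5, so no array lay near the limit. The name RT1-Bb-low fits that probe set and not the gene as a whole. A second RT1-Bb probe set spanned 275 to 1526 on the 43 arrays below the limit and 469.7 to 1586 on the 12 above it, which overlap. Another ran the other way, at 174 to 877 on the 43 arrays and 0.900 to 23.7 on the 12. Other class II genes followed the split in part. A probe set of RT1-Ba read 456.2 to 1112.5 on the 43 arrays and 1805.1 to 3594.5 on the 12. For RT1-Db1, a probe set read 22.5 to 194.9 and 314.9 to 657.0 in the same order. The remaining probe sets of RT1-Ba and RT1-Db1 overlapped between the classes, and so did those of RT1-Da. The arrays are therefore described by the rule, as arrays below the limit of 1 probe set.

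The rat nephron is still forming and lengthening after birth. Young kidneys hold dividing cells and a loose collagen-rich interstitium, and the tubules gain their transporters, brush border enzymes and drug-metabolising enzymes over the following weeks. Fibrillar collagens, mitotic genes and tubular transporters are therefore common yardsticks of kidney maturation. Several cytochromes P450 and binding proteins of the rat also change around weaning and puberty, some of them differently in males and females.

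The arrays were not uniform, and this bears on every result below. Expression of bacterial, phage and other control probe sets placed the arrays in 3 batches. The labels name no batch, and the batches were found from the control probes alone. The arrays carried kidney RNA by its defining markers: the lowest of the 21 arrays read 3995 for Umod, 3537 for Aqp1 and 7882 for Kap, an androgen-regulated protein of the rodent proximal tubule. Of the arrays with no stage word, 3 lay in batch 2 and 8 in batch 3. Of the immature arrays, 3 lay in batch 1 and 7 in batch 2. A probe set annotated with 18S ribosomal RNA and other genes spanned 13775 to 20470.5 in the 7 immature samples of batch 2 and 27.9 to 63.5 in the 3 of batch 1. On the arrays with no stage word it read 67.4 to 12858, with a median of 133.3, and only 1 of the 11 was above 3000. Most changes are therefore also given for 1 or both of 2 smaller sets of arrays. A change given without them is not thereby one that held there. Inside batch 2 there are 3 arrays with no stage word and 7 immature arrays, all 7 high in the 18S signal and none of the 3. Without the arrays above 3000 there are 10 arrays with no stage word and 3 immature arrays, and those 3 lie in a batch of their own, so there batch and group cannot be told apart. The immature arrays of the 2 sets are different arrays, and the 3 arrays with no stage word of batch 2 are in both. Correlations between the 21 arrays on the log2 scale ran from 0.879 to 0.988. For 20 of the 21, the most similar array was of the same group, and for 20 it was of the same batch. The GAPDH 3′/5′ signal ratio was 0.949 to 1.22 with no stage word and 0.827 to 1.12 in immature kidney. The part of batch and 18S signal in the results was not tested beyond these smaller sets.

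Over the 21 arrays, 2359 of 6555 probe sets passed an adjusted p of 0.05 (36.0%), by limma with Benjamini-Hochberg adjustment and no covariate. Of these, 1149 were higher with no stage word (17.5%) and 1210 were lower (18.5%). Inside batch 2 the same test called 2284 probe sets (34.8%). Without the arrays of high 18S signal it called 700 (10.7%), with 3 immature arrays left. A set of 266 probe sets was called in all 3 fits in the same direction, 138 higher and 128 lower. The groups did not overlap at all for 160 of the 6555 probe sets (2.44%). Of the 3839 genes with a name, 640 (16.7%) were called higher and 757 (19.7%) lower. Without the arrays of high 18S signal the shares were 4.82% in each direction, and inside batch 2 they were 14.7% higher and 19.8% lower. These shares are the background for the gene groups below, and so are the all-gene medians of the log2 change, 0.05 over the 21 arrays and -0.11 without the arrays of high 18S signal. All changes below are differences of log2(intensity + 15.82), no stage word minus immature, with a standard error (SE) of the fit. They understate the change of dim probe sets. In bulk tissue, fewer cells of a type and less RNA per cell cannot be told apart.

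Genes with the largest changes are taken from those that passed both with no covariate and with batch as a block, which called 1691 probe sets (25.8%). Only batch 2 holds both groups, so the change with batch as a block is the change inside batch 2. The batch 2 values of these genes therefore share in how they were chosen and are no separate check. Cyp2c11 led the rises. It is a steroid- and arachidonate-oxidising cytochrome P450 that in rat liver is a male-predominant enzyme. Its lowest, median and highest intensities were 1288, 2185 and 4072 with no stage word, against 20.7, 51.0 and 214 in immature kidney. Every array with no stage word was above every immature array, and the immature arrays spread widely, with values of 75.7 to 214 in batch 1 and 20.7 to 193 in batch 2. The change was 5.01 ± 0.31 (adjusted p = 1.1e-10), about 32.3-fold on the fitted scale. It was 5.27 inside batch 2 and 4.12 without the arrays of high 18S signal, both past the threshold. Both other tested Cyp2c11 probe sets were called higher too. Related P450 genes are close in sequence, and how far these probe sets tell them apart was not analysed.

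**Figure D1:**
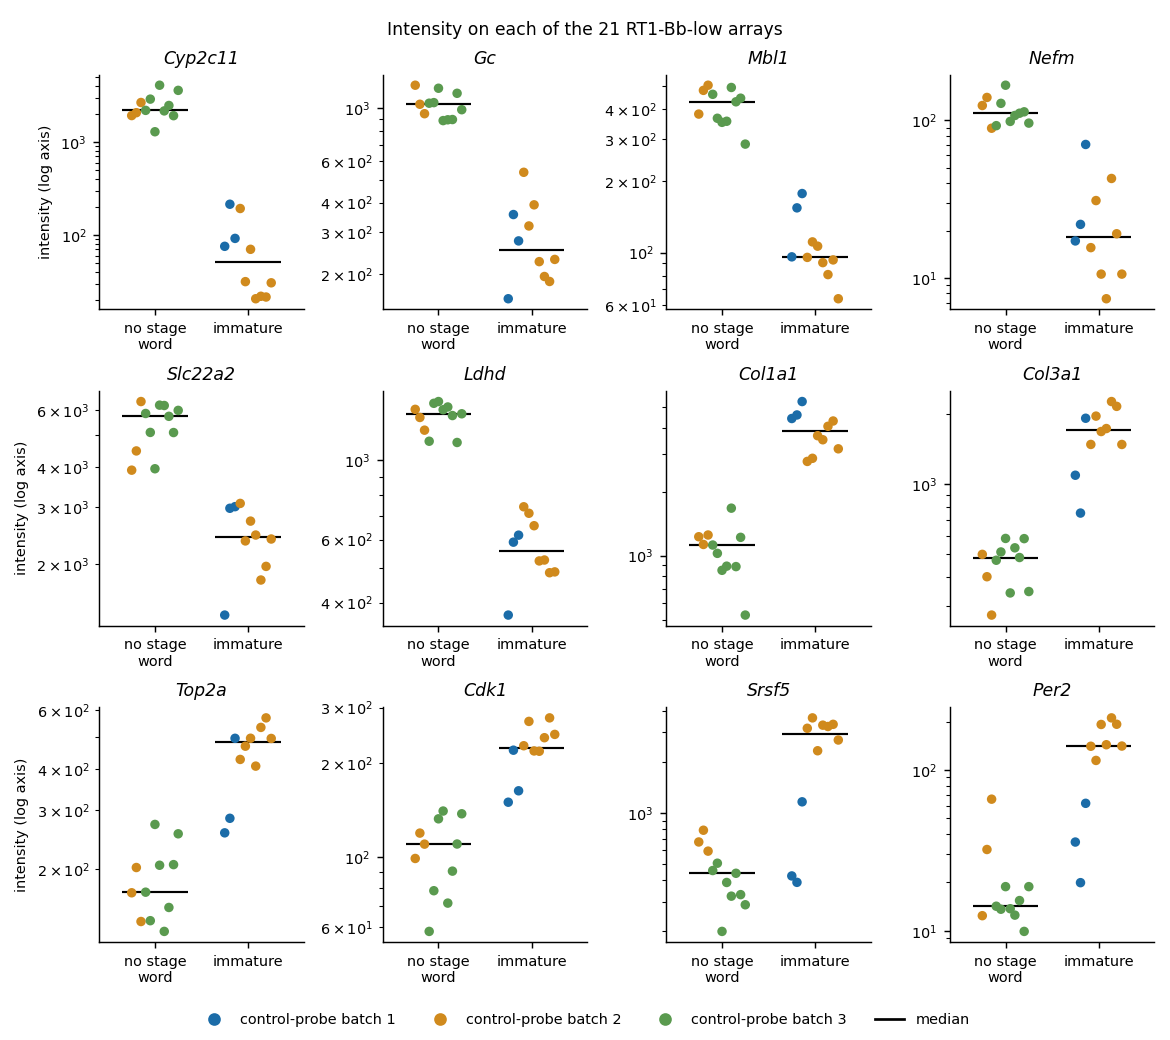
Deposited intensity (log axis) of 12 genes on each of the 21 arrays, with no stage word on the left of each panel and immature on the right, 1 point per array coloured by control-probe batch and a bar at the median. Cyp2c11, Gc, Mbl1, Nefm, Slc22a2, Ldhd, Col1a1, Col3a1 and Cdk1 do not overlap between the groups. The 3 immature arrays of batch 1 overlap the arrays with no stage word for Per2, and for Srsf5 all of them but replicate 6 do.

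The promoter of Cyp2c11 is set beside those of genes that were lower with no stage word, 2 of fibrillar collagen and 3 of cell division, because these genes kept their direction and their call in all 3 fits. Each is 250 bases before to 50 after the annotated start in RefSeq, build GRCr8, 5′ to 3′ on the gene's own strand. Capitals mark 3 short motifs on either strand. The first is CCAAT, which reads ATTGG on the opposite strand. The second is TATAAA, which reads TTTATA on the opposite strand, and the last is TTTGAA, which reads TTCAAA there. None of the marked motifs overlap each other. The Cyp2c11 promoter lies at chr1:246174966-246175265 on the plus strand, that of Col1a2 at chr4:33518307-33518606 (plus) and that of Cdk1 at chr20:19265043-19265342 (plus). That of Col5a2 lies at chr9:55090102-55090401 (minus). That of Top2a lies at chr10:84473044-84473343 (minus) and that of Cdc20 at chr5:137255750-137256049 (minus).
Cyp2c11: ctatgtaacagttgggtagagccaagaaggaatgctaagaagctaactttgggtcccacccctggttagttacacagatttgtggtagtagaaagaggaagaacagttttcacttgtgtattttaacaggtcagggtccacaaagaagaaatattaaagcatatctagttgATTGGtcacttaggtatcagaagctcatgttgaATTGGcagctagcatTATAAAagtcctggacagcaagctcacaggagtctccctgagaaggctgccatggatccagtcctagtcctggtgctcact
Col1a2: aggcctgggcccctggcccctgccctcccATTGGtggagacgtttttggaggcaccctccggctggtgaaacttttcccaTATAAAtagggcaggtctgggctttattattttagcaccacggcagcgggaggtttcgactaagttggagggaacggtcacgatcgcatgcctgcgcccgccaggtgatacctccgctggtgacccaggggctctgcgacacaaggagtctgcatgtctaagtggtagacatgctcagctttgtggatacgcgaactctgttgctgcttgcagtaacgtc
Col5a2: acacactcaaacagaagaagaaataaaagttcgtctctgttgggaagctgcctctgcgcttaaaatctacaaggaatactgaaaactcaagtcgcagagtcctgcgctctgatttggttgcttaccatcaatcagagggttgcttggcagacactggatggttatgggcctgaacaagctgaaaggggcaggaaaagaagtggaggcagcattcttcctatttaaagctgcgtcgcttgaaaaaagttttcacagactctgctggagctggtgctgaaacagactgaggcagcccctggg
Cdk1: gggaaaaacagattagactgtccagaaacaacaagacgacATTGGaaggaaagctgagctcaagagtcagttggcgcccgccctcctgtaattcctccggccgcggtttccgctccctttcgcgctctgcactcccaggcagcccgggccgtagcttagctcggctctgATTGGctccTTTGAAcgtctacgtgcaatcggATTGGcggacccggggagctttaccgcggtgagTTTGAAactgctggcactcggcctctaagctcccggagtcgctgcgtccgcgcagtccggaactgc
Top2a: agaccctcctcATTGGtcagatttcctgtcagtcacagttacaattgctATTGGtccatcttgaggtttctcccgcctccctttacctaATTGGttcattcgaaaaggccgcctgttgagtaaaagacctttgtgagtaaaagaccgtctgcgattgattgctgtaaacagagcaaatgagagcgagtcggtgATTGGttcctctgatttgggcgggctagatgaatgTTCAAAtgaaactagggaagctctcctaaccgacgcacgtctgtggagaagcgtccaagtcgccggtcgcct
Cdc20: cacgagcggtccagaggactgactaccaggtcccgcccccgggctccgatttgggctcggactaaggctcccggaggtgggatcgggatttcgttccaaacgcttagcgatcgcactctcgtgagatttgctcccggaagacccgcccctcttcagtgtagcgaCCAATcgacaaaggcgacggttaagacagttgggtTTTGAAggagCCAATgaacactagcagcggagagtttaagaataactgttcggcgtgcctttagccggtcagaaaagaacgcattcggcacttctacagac
Among all 33469 promoters of this length, 37.5% hold CCAAT, 14.2% hold TATAAA and 18.3% hold TTTGAA on either strand. The Top2a promoter holds CCAAT 4 times, that of Cdk1 3 times and that of Cdc20 2 times, and each of these 3 holds TTTGAA at least 1 time and TATAAA not at all. Cyp2c11 and Col1a2 each hold TATAAA 1 time, and Col5a2 holds none of the 3 motifs. The TATAAA of Cyp2c11 begins at -31 from the annotated start and that of Col1a2 at -170. A match to such letters is a description and not a binding site.

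Gc and Mbl1 were among the other largest rises. Gc, the vitamin D-binding protein, read 885, 1037 and 1247 with no stage word (lowest, median, highest), against 158, 254 and 537 in immature kidney. The groups did not overlap, and the change was 1.86 ± 0.16 (adjusted p = 3.4e-08), 1.88 inside batch 2 and 1.97 without the arrays of high 18S signal. Mbl1, the mannose-binding lectin A of rodents and a starter of the complement cascade, read 285, 428 and 503 with no stage word, against 64.0, 95.7 and 177 in immature kidney. Its groups did not overlap either, with a change of 1.83 ± 0.14 (adjusted p = 4.9e-09), 2.13 and 1.51 in the smaller sets. The defining liver markers were read by 3 tested probe sets. For Alb, albumin, these gave 48.5 to 138.9 with no stage word and 47.8 to 91.7 in immature kidney, and 17.4 to 127.9 with no stage word and 21.0 to 644 in immature kidney. The tested probe set of Ttr, transthyretin, gave 110.3 to 282.5 with no stage word and 107.1 to 441.6 in immature kidney. The groups overlapped for all 3, and the part of other tissue in the rises of Gc and Mbl1 was not tested.

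Nefm, the medium chain of neurofilaments, rose to a median of 111 with no stage word, against 18.1 in immature kidney, and its ranges of 89.1 to 167 and 7.40 to 70.3 did not overlap. Its change was 1.79 ± 0.18 (adjusted p = 3.2e-07), with 1.97 inside batch 2 and 1.46 without the arrays of high 18S signal. Cxcl13, a chemokine that draws B cells, read 139 to 320.2 with no stage word, against 36.7 to 74.2 in immature kidney. Its change was 1.66 ± 0.14 (adjusted p = 1.8e-08), with 1.74 inside batch 2 and 1.57 without the arrays of high 18S signal. Slc22a2, the organic cation transporter OCT2 of the basolateral membrane of the proximal tubule, read 3904, 5733 and 6372 with no stage word, against 1387, 2422 and 3079 in immature kidney. Its change of 1.17 ± 0.14 (adjusted p = 2.2e-06) was 1.02 inside batch 2 and 1.16 without the arrays of high 18S signal. Ldhd, a mitochondrial dehydrogenase of D-lactate, read 1121 to 1459 with no stage word and 369 to 741 in immature kidney. It changed by 1.21 ± 0.11 (adjusted p = 5.4e-08), by 1.14 inside batch 2 and by 1.33 without the arrays of high 18S signal. These 4 genes passed the test in every one of the 3 fits, and their choice already drew on the first 2.

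Other large rises differed in size between the sets of arrays. Mgll, the lipase that breaks down monoacylglycerols, rose by 1.61 over the 21 arrays, by 0.93 inside batch 2 and by 2.47 without the arrays of high 18S signal. Ptgir, the prostacyclin receptor, rose by 1.54, 1.16 and 2.51 in the same order. Tff3, a secreted trefoil peptide of epithelia, rose by 1.38, 1.01 and 2.44. For Mgll and Ptgir every immature array of batch 1 read below every immature array of batch 2, and for Tff3 the values were 1452 to 4674 in batch 1 and 4355 to 11808 in batch 2. Pdpk1, a kinase of the insulin pathway, rose by 2.10, but its immature arrays read 5.00 to 7.50 in batch 1 and 64.7 to 98.2 in batch 2. The change was 0.97 inside batch 2 and 3.66 without the arrays of high 18S signal. Mapk8ip1, a scaffold of JNK signalling, rose by 1.31, 0.83 and 2.27, and Rasa2, a Ras GTPase-activating protein, by 1.27, 0.51 and 1.47. Prep, the cytosolic prolyl endopeptidase, rose by 1.15, 0.77 and 1.15. Jund, a subunit of the AP-1 transcription factor, did not keep its direction. It was 1.39 over the 21 arrays (adjusted p = 0.017) and -0.92 with batch as a block (adjusted p = 0.038), so it passed in opposite directions in the 2 fits that chose it. It was -0.92 inside batch 2 (adjusted p = 0.085), where the 3 arrays with no stage word read 30.4 to 48.5 and the 8 of batch 3 read 202 to 443.

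**Figure D2:**
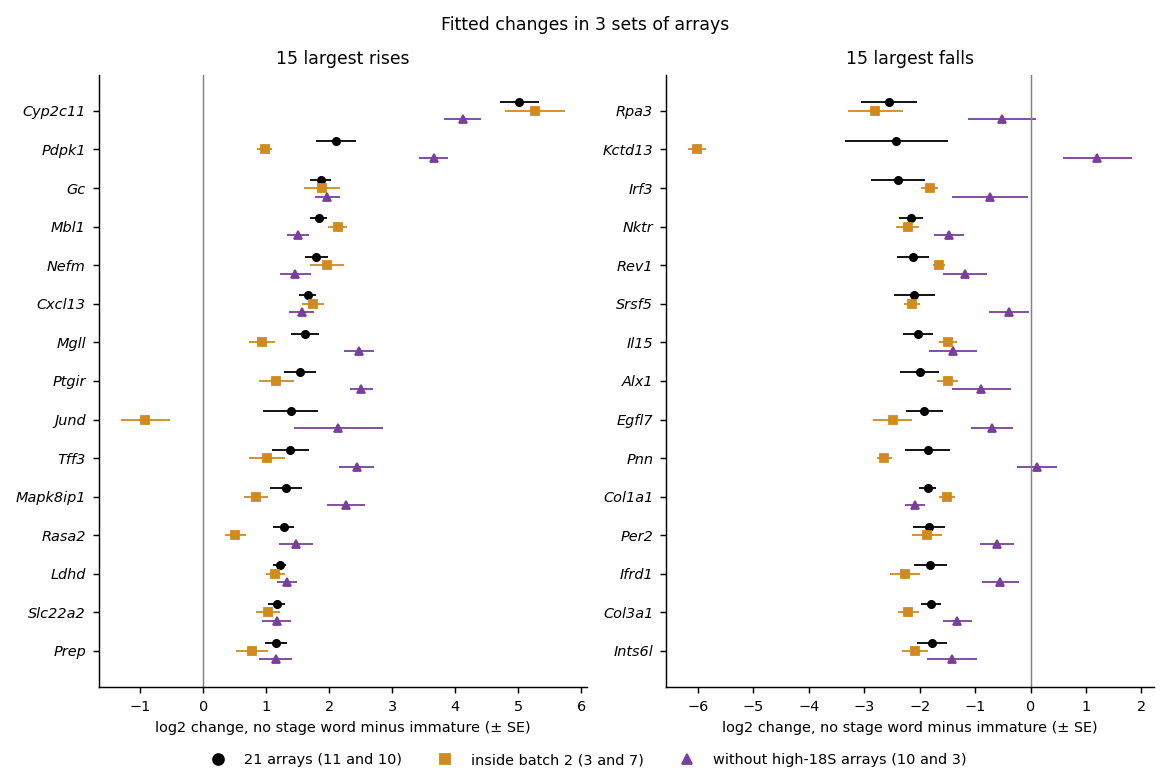
Fitted log2 change (no stage word minus immature, bars show 1 SE) of the 15 largest rises (left) and the 15 largest falls (right), over the 21 arrays, inside batch 2 and without the arrays of high 18S signal. Cyp2c11, Gc, Mbl1, Nefm, Cxcl13 and Ldhd keep nearly their size in all 3. Rpa3, Srsf5 and Pnn lie between -0.51 and 0.12 without the arrays of high 18S signal, and Jund, Kctd13 and Pnn change sign.

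Fibrillar collagen genes were called lower more often than higher with no stage word. Of 19 tested genes of fibrillar collagen and associated matrix, 9 were called lower and 2 higher (all named genes 19.7% and 16.7%), with a median change of -0.34. Inside batch 2, 11 were called lower and 0 higher, and without the arrays of high 18S signal 6 lower and 1 higher. The medians of these 2 sets were -0.75 and -0.12, against 0.004 and -0.11 for all named genes. Col1a1, the alpha-1 chain of type I collagen, read 526, 1122 and 1672 with no stage word (lowest, median, highest), against 2773, 3859.7 and 5302 in immature kidney. The groups lay far apart, and the immature arrays of batch 1 (4412 to 5302) were above those of batch 2 (2773 to 4295). The change was -1.86 ± 0.16 (adjusted p = 2.9e-08), or 3.62-fold lower, with -1.50 inside batch 2 and -2.09 without the arrays of high 18S signal. All 3 other tested Col1a1 probe sets were called lower as well.

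Col1a2, the partner chain in type I collagen, read 372 to 865 with no stage word and 997 to 1719.6 in immature kidney. It fell by 1.14 (adjusted p = 1.1e-06), with -1.02 and -1.39 in the smaller sets. Col3a1, the chain of type III collagen, read 274, 484 and 585 with no stage word, against 752, 1713 and 2272 in immature kidney. Its change of -1.79 ± 0.17 (adjusted p = 1.9e-07) was -2.20 inside batch 2 and -1.32 without the arrays of high 18S signal. A second Col3a1 probe set gave -0.47 (adjusted p = 0.0075), and -0.43 (adjusted p = 0.26) without the arrays of high 18S signal. Col5a2, a chain of type V collagen, which sits in the core of type I fibrils, read 103, 139 and 209 with no stage word, against 294, 479 and 526 in immature kidney, with no overlap. It changed by -1.49 ± 0.14 (adjusted p = 1.3e-07), by -1.79 and by -1.05. The brightest probe sets of these 4 collagen genes passed in all 3 fits, with every array with no stage word below every immature array.

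A further 5 matrix genes were called lower over the 21 arrays. Dcn, the small proteoglycan decorin that binds collagen fibrils, changed by -1.74 ± 0.24 (adjusted p = 1.0e-05), and Eln, elastin, by -0.70 ± 0.14 (adjusted p = 0.0007). In the smaller sets both passed, at -1.28 and -1.66 for Dcn and -0.63 and -1.18 for Eln. The 3 other tested Dcn probe sets were called lower over the 21 arrays as well. In the set without high 18S signal they gave -1.54, -0.39 and -0.11 (adjusted p = 0.067, 0.31 and 0.83), and the first of them was -0.04 inside batch 2. Fn1, fibronectin, changed by -1.38, but its 3 other tested probe sets were not called, and without the arrays of high 18S signal its change was -0.67 (adjusted p = 0.064). Spp1, the secreted phosphoprotein osteopontin, changed by -0.83, and by -0.24 (adjusted p = 0.63) without those arrays. Col12a1, a collagen attached to fibrils, changed by -0.51, with -0.76 inside batch 2 and -0.30 (adjusted p = 0.41) without the high 18S arrays. The 2 genes called higher were Col5a1 at 0.49 and Sparc, a collagen-binding matrix protein, at 0.82. Inside batch 2 they were 0.09 and -0.20, neither past the threshold, and the 3 other tested probe sets of Sparc were not called. Serpinh1, the collagen chaperone HSP47, read 633 to 1153 with no stage word and 1125 to 1888 in immature kidney. It changed by -0.88 ± 0.12 (adjusted p = 9.4e-06), by -0.84 inside batch 2 and by -0.59 without the arrays of high 18S signal.

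Among 7 tested basement membrane genes, 3 were called lower and 0 higher, with 4 and 0 inside batch 2 and 2 and 0 without the arrays of high 18S signal. Col4a5, a chain of the type IV collagen of the mature glomerular filter, read 94.6, 236 and 405 with no stage word, against 447, 770.1 and 1012 in immature kidney, without overlap. It changed by -1.53 ± 0.19 (adjusted p = 4.0e-06), -1.31 and -0.90, past the threshold each time. Agrn, the heparan sulphate proteoglycan agrin, changed by -0.71 and its second probe set was lower too, while without the arrays of high 18S signal the first gave -0.52 (adjusted p = 0.077). Lama1, a laminin chain, changed by -0.61 (adjusted p = 0.031), and immature replicate 4 decided that call, with an adjusted p of 0.051 without it. Lama3, another laminin chain, did not pass over the 21 arrays (-0.30, adjusted p = 0.065) and stood at -0.72 inside batch 2, where it passed.

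Genes of matrix turnover were called in both directions, 5 higher and 5 lower of 29 tested, with 6 and 8 inside batch 2 and 5 and 4 without the arrays of high 18S signal. Ctsb, the lysosomal protease cathepsin B, read 6421 to 10533 with no stage word and 3069.7 to 5062 in immature kidney, a change of 0.85 ± 0.10 (adjusted p = 2.7e-06). Ctss, cathepsin S of antigen-presenting cells, changed by 0.88 ± 0.14 (adjusted p = 4.3e-05). Ctsk, the collagen-cutting cathepsin K, went the other way, with 24.4 to 111 with no stage word, 132 to 261 in immature kidney and a change of -1.10 ± 0.17 (adjusted p = 3.9e-05). All 3 cathepsins held in both smaller sets.

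Genes of cell division were likewise called lower more often than higher. Of 12 tested mitosis genes 6 were called lower and 0 higher over the 21 arrays, 6 and 0 inside batch 2, and 4 lower and 1 higher without the arrays of high 18S signal. Top2a, the topoisomerase that untangles chromosomes, read 129.9, 170.4 and 272 with no stage word, against 257, 481 and 569 in immature kidney. The groups met only at their edges, and the change was -1.18 ± 0.15 (adjusted p = 4.5e-06), -1.43 inside batch 2 and -0.86 without the arrays of high 18S signal. A second Top2a probe set gave -0.02 and was not called. Cdk1, the kinase that starts mitosis, read 58.0 to 140.4 with no stage word and 149.8 to 278 in immature kidney, without overlap. Its change of -1.01 ± 0.14 (adjusted p = 1.2e-05) was -1.04 and -0.75 in the smaller sets. Cdc20, which switches on the anaphase-promoting complex, changed less, by -0.49 ± 0.09 (adjusted p = 0.00032), with -0.54 and -0.50. The promoters of these 3 genes are printed above.

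The other 3 mitosis genes lost their call without the arrays of high 18S signal. Racgap1, a regulator of cytokinesis, changed by -0.40 over the 21 arrays and by -0.39 (adjusted p = 0.19) without them. Stmn1, the microtubule-destabilising stathmin, changed by -0.86 and -0.12 (adjusted p = 0.68), and Hmmr, a spindle-associated hyaluronan receptor, by -0.98 and 0.08 (adjusted p = 0.85). For Hmmr the immature arrays read 18.0 to 37.7 in batch 1 and 84.0 to 166 in batch 2, against 14.1 to 84.4 with no stage word.

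DNA replication genes were called lower over the 21 arrays in 11 of 25 cases and higher in 0. Inside batch 2 the counts were 12 lower and 2 higher, and without the arrays of high 18S signal 2 lower and 0 higher. Dut, the dUTPase that keeps uracil out of DNA, changed by -0.996 (adjusted p = 4.7e-05) and stood at -0.33 (adjusted p = 0.21) in that smaller set. Prim1, the primase subunit, changed by -0.85 and -0.31 (adjusted p = 0.29). E2f5, an E2F transcription factor, changed by -0.86 and -0.49 (adjusted p = 0.13), and Cdk4, the G1 kinase, by -0.56 and -0.52 (adjusted p = 0.06). The direction was the same for these 4 in all 3 fits, and none passed in the smaller set.

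Among 27 tested genes of nephron development, 4 were called lower and 2 higher, with 6 and 0 inside batch 2 and 1 and 0 without the arrays of high 18S signal. Gpc3, the proteoglycan glypican-3 that restrains growth, read 173 to 418 with no stage word and 412 to 801 in immature kidney. Its change of -1.17 ± 0.15 (adjusted p = 3.6e-06) was -0.71 and -1.30 in the smaller sets, all past the threshold, and a second probe set was lower as well. Marcks, an actin-binding kinase substrate, changed by -0.67, with -0.40 (adjusted p = 0.066) inside batch 2, -0.52 (adjusted p = 0.072) without the arrays of high 18S signal and 3 other tested probe sets not called. Ptn, the growth factor pleiotrophin, changed by -1.34, and by -0.13 (adjusted p = 0.79) in that set.

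Proximal tubule genes were more often higher than lower with no stage word. Of 43 tested genes 18 were called higher and 6 lower, with a median change of 0.30. The counts were 13 and 6 inside batch 2 (median 0.17), and 15 and 0 without the arrays of high 18S signal (median 0.32). Slc9a3, given below with the sodium pumps and channels, was among the 6 called lower over the 21 arrays. The summed intensity of the list was 174208 to 219673 with no stage word and 121228 to 171405 in immature kidney, without overlap. Ggt1, the brush border gamma-glutamyltransferase that splits glutathione, read 7376, 8617 and 11031 with no stage word, against 3715, 4389.9 and 6676 in immature kidney. It rose by 0.90 (adjusted p = 5.4e-06), 1.09 inside batch 2 and 0.50 without the arrays of high 18S signal. Aqp1, the water channel of the proximal tubule and thin descending limb, read 7168 to 11752 with no stage word and 3537 to 6503 in immature kidney. It rose by 0.83, 0.49 and 1.01 in the 3 sets. Slc22a6, the organic anion transporter OAT1, rose by 0.74, 1.03 and 0.67, likewise without overlap between its groups over the 21 arrays.

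Of 9 tested organic ion transporters, 3 were called higher and 0 lower. Slc22a2 and Slc22a6 are given above, and the third was Slco1a1, the organic anion transporter OATP1A1. Slco1a1 stood at 0.68 over the 21 arrays, -0.11 inside batch 2 (adjusted p = 0.71) and 1.34 without the arrays of high 18S signal.

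**Figure D3:**
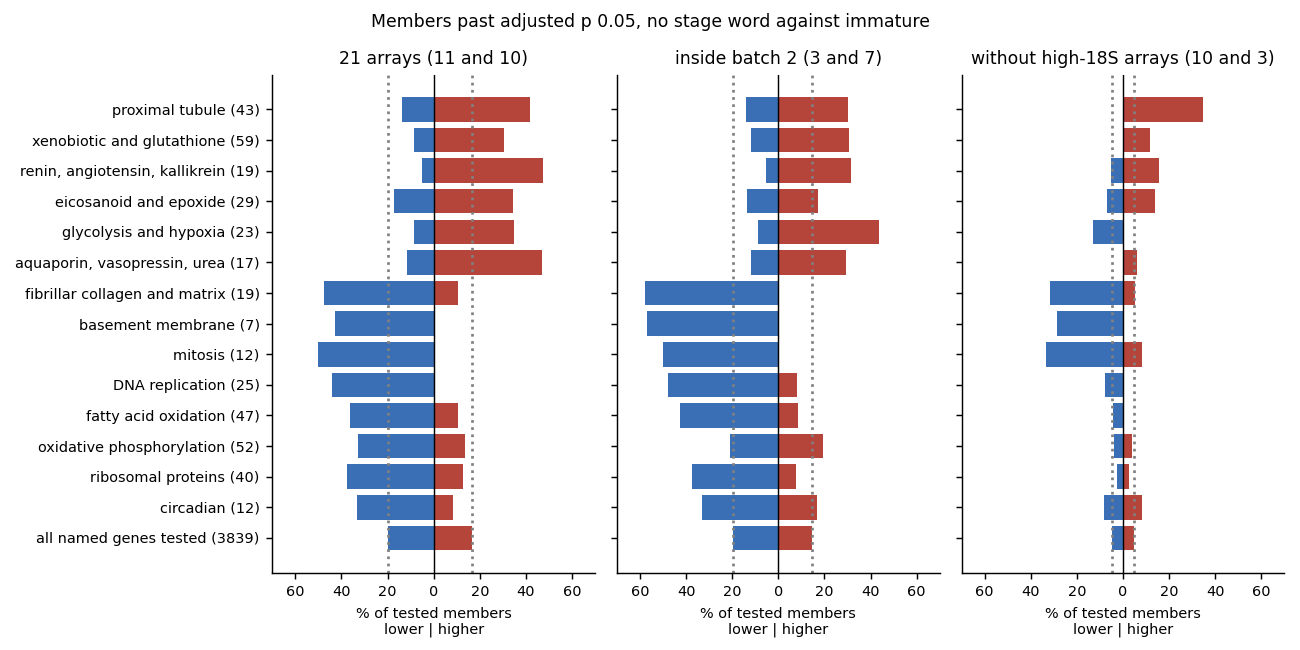
Share of the tested members of 14 gene lists, and of all named genes, called lower (left, blue) or higher (right, red) at an adjusted p of 0.05 in 3 sets of arrays, with the number tested in parentheses and dotted lines at the shares of all named genes. Proximal tubule genes lie past the higher line and fibrillar collagen and mitosis genes past the lower line in each panel, while the ribosomal protein and fatty acid oxidation shares fall to the background in the right panel.

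Further down the nephron the calls were mixed. Of 9 tested thick ascending limb genes 4 were called higher and 1 lower, and inside batch 2 only 1 was called, lower. Umod, uromodulin, the most abundant urinary protein, changed by 0.76 over the 21 arrays, 0.10 inside batch 2 (adjusted p = 0.53) and 1.31 without the arrays of high 18S signal. Casr, the calcium-sensing receptor, changed by 0.44, with 0.20 (adjusted p = 0.32) inside batch 2 and 0.02 (adjusted p = 0.95) without the arrays of high 18S signal. Slc12a1, the sodium-potassium-chloride cotransporter NKCC2, changed by -0.68, and by 0.16 (adjusted p = 0.62) without the arrays of high 18S signal. Of 25 tested distal nephron and collecting duct genes 5 were called higher and 8 lower, with 9 and 6 inside batch 2 and 2 and 3 without the arrays of high 18S signal. Aqp3, the basolateral water channel of principal cells, read 1666 to 2165 with no stage word and 2209 to 3120.4 in immature kidney, which do not overlap, and changed by -0.47 ± 0.08 (adjusted p = 0.0002). Calb1, the calcium-binding calbindin of the distal convoluted and connecting tubule, changed by -0.59 ± 0.11 (adjusted p = 0.00021), -0.36 and -0.55, past the threshold each time. Car2, carbonic anhydrase 2, changed by -0.59, and by -0.07 (adjusted p = 0.79) without the arrays of high 18S signal. Kcnma1, the large-conductance potassium channel, read 18.1 to 138 with no stage word and 12.0 to 56.4 in immature kidney (adjusted p = 0.0013), and its change was 0.28 (adjusted p = 0.57) without the arrays of high 18S signal.

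Sodium pump and channel genes gave 2 higher and 7 lower of 23 tested, 2 and 6 inside batch 2, and 2 and 2 without the arrays of high 18S signal. Slc9a3, the apical sodium-proton exchanger NHE3, changed by -1.12. Its immature arrays read 326 to 413 in batch 1 and 849.6 to 1088 in batch 2, against 141 to 469 with no stage word, and without the arrays of high 18S signal the change was -0.22 (adjusted p = 0.61). Scnn1g, the gamma subunit of the epithelial sodium channel, changed by -0.44, with -0.30 (adjusted p = 0.24) without the arrays of high 18S signal. Fxyd4, a regulator of the sodium pump in the collecting duct, changed by -0.44, with -0.39 (adjusted p = 0.16) there. Of 17 aquaporin, vasopressin and urea transport genes 8 were called higher and 2 lower, with 5 and 2 inside batch 2 and 1 and 0 without the arrays of high 18S signal. Slc14a2, the urea transporter of the inner medulla, changed by 0.60, and its second tested probe set by -0.35, which did not pass. Of 21 calcium and vitamin D genes 7 were called higher and 3 lower, Gc foremost among the rises, with 4 and 4 inside batch 2 and 2 and 4 without the arrays of high 18S signal. Calm2, calmodulin, changed by -0.69 (adjusted p = 0.00013) without overlap of the groups, and S100g, the small calbindin, by -0.59 (adjusted p = 0.0037). A second tested S100g probe set gave -0.23 (adjusted p = 0.15) and was not called.

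Renin-angiotensin and kallikrein genes were called higher more often than lower. Of these, 9 of 19 tested were called higher and 1 lower, with a median change of 0.37. The counts were 6 and 1 inside batch 2 (median 0.20) and 3 and 1 without the arrays of high 18S signal (median -0.06). Agt, angiotensinogen, the precursor of the angiotensins, read 337, 575 and 698 with no stage word, against 133, 234 and 526 in immature kidney. It rose by 1.12 (adjusted p = 0.00021) and by 1.76 inside batch 2. Without the arrays of high 18S signal the change was 0.41 (adjusted p = 0.23), where the 3 immature arrays read 296 to 526, above the 133 to 246 of batch 2. Agtr1a, the type 1 angiotensin II receptor, was the gene called lower, at 346 to 584 with no stage word and 606 to 1304 in immature kidney, which do not overlap. It fell by 0.98 (adjusted p = 6.2e-06), with -1.17 and -0.58 in the smaller sets. Of its 3 other tested probe sets 2 were lower and 1 was not called.

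The enzymes that process angiotensins differed in how they held. Ace, the angiotensin-converting enzyme, changed by 0.80, 0.67 inside batch 2 and 0.19 (adjusted p = 0.65) without the arrays of high 18S signal. Anpep, aminopeptidase N of the brush border, changed by 0.50, 0.38 and 0.56, past the threshold each time, and its 2 other probe sets were higher as well. Enpep, aminopeptidase A, which cuts angiotensin II, changed by 1.28 over the 21 arrays, by -0.26 (adjusted p = 0.53) inside batch 2 and by 3.03 without the arrays of high 18S signal. Its immature arrays read 24.6 to 50.0 in batch 1 and 189 to 383 in batch 2. The arrays with no stage word read 126 to 400.4 in batch 2 and 439.9 to 576 in batch 3, so only the immature arrays of batch 1 lay below all of them. Cma1, chymase, changed by 0.31 (adjusted p = 0.044) and lost its call without any 1 of 14 arrays. Klk1, tissue kallikrein, changed by 0.53, Klk1c9 by 0.44 and Klk1c12 by 0.54. These kallikreins are close copies of each other, so their probe sets may share signal, and without the arrays of high 18S signal none of the 3 passed (-0.08, 0.21 and -0.10). Serpina3n, a serine protease inhibitor, changed by 0.37.

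Of 29 tested eicosanoid and epoxide genes 10 were called higher and 5 lower, led by Cyp2c11. Inside batch 2 the counts were 5 and 4, beside 14.7% and 19.8% of all named genes. Without the arrays of high 18S signal they were 4 and 2. The median change was 0.28 over the 21 arrays, 0.10 inside batch 2 and 0.009 without the arrays of high 18S signal. Cyp4a8, an omega-hydroxylase of arachidonic acid, read 6869 to 9298 with no stage word and 3403 to 6731 in immature kidney and rose by 0.64 (adjusted p = 0.00014), with 0.45 (adjusted p = 0.093) inside batch 2. Its second probe set gave 0.14 and was not called. Cyp4f1 rose by 0.66, 0.52 and 0.57, and Cyp4f6 by 0.35 (adjusted p = 0.027), with 0.45 (adjusted p = 0.064) inside batch 2. Cyp2c23, the main arachidonate epoxygenase of rat kidney, changed by 0.87 over the 21 arrays and by 0.09 (adjusted p = 0.84) inside batch 2. Ephx1, the microsomal epoxide hydrolase, changed by 0.40, with 0.36 and 0.59 short of the threshold (adjusted p = 0.11 and 0.053). Cyp4a1 went the other way at -0.52 (adjusted p = 0.023), and its 2 other tested probe sets were not called.

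Of the prostaglandin genes, Ptgr1, which inactivates prostaglandins and leukotriene B4, was lower at 206 to 376 with no stage word and 409.5 to 933 in immature kidney, without overlap. It changed by -1.05 ± 0.15 (adjusted p = 1.8e-05), -1.13 inside batch 2 and -0.56 (adjusted p = 0.055) without the arrays of high 18S signal. Hpgd, the main prostaglandin-degrading dehydrogenase, changed by -0.96, and by -0.26 (adjusted p = 0.39) there. Pla2g4a, the phospholipase that frees arachidonic acid, changed by -0.59, -0.82 and -0.59 (adjusted p = 0.052). Alox15, a lipoxygenase, changed by -0.84, by -0.07 (adjusted p = 0.68) inside batch 2 and by -1.49 without the arrays of high 18S signal. Ptgs1, cyclooxygenase 1, and the prostaglandin receptors Ptger3 and Ptgfr rose by 0.44, 0.40 and 0.37, and none of these 3 passed in either smaller set.

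Conjugating and glutathione enzymes were more often higher, 18 of 59 tested against 5 lower. The counts were 18 and 7 inside batch 2, and 7 and 0 without the arrays of high 18S signal. Akr7a3, an aldehyde reductase, read 10329.5 to 18712 with no stage word and 4414 to 8715 in immature kidney and changed by 1.02 ± 0.13 (adjusted p = 3.4e-06). Gstp1, glutathione S-transferase pi, changed by 0.80 ± 0.11 (adjusted p = 1.4e-05), and Gsta1, an alpha-class transferase with close relatives, by 0.98 ± 0.16 (adjusted p = 6.1e-05). All 3 held in both smaller sets, at 0.56, 0.64 and 0.54 inside batch 2.

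Fatty acid oxidation genes were lower more often than higher, 17 against 5 of 47 tested, with 20 and 4 inside batch 2 and 2 and 0 without the arrays of high 18S signal. Fabp3, a fatty acid-binding protein, changed by -0.57 without overlap of the groups, Fabp5 by -0.64 and Acot1, an acyl-CoA thioesterase, by -0.75. Without the arrays of high 18S signal these were -0.40, -0.59 and -0.59, none past the threshold (adjusted p = 0.062, 0.081 and 0.093). Of 49 gluconeogenic and amino acid enzymes 5 were called higher and 11 lower over the 21 arrays, 16 and 6 inside batch 2, and 5 and 1 without the arrays of high 18S signal. Glul, glutamine synthetase, read 10762 to 17075 with no stage word and 4902 to 9259.9 in immature kidney, rose by 0.86 (adjusted p = 3.4e-06) and held in both smaller sets, and 3 other probe sets of it were higher. Dao, the peroxisomal D-amino acid oxidase, rose by 0.58, and Pcca, a subunit of propionyl-CoA carboxylase, fell by 0.63. Neither passed without the arrays of high 18S signal (0.44 and -0.20).

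Glycolytic and hypoxia genes gave 8 higher and 2 lower of 23 tested, 10 and 2 inside batch 2, and 0 and 3 without the arrays of high 18S signal. Aldoa, aldolase A, read 4946 to 6489 with no stage word and 2083 to 4801 in immature kidney and rose by 1.02 (adjusted p = 1.2e-05), with 0.43 (adjusted p = 0.082) without the arrays of high 18S signal. Pklr, the pyruvate kinase of liver and kidney, rose by 0.64 and Pgam1, phosphoglycerate mutase, by 0.51, with 0.30 and 0.22 there, not past the threshold. The other tested Pgam1 probe sets gave -0.36 (adjusted p = 0.073) and 0.18 (adjusted p = 0.092) over the 21 arrays and were not called. Vegfa, the vascular growth factor, was lower by all 4 of its probe sets over the 21 arrays, at 132 to 310.0 with no stage word and 173 to 1053 in immature kidney for the brightest. Its immature arrays split by batch, 173 to 396 in batch 1 and 827 to 1053 in batch 2, and without the arrays of high 18S signal its change was -0.22 (adjusted p = 0.59).

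Oxidative phosphorylation and ribosomal protein genes were lower more often than higher over the 21 arrays and not in the set without high 18S signal. Oxidative phosphorylation genes gave 7 higher and 17 lower of 52, 10 and 11 inside batch 2, and 2 and 2 in that set. Uqcrc2, a core subunit of complex III, changed by -1.19 and -0.57 (adjusted p = 0.087), and Ndufc2, a subunit of complex I, by -1.01 and -0.49 (adjusted p = 0.09). Cytosolic ribosomal protein genes gave 5 higher and 15 lower of 40, with a median of -0.29, and 3 and 15 inside batch 2. In the set without high 18S signal they gave 1 and 1, with a median of -0.12. Rpl22 changed by -0.78 (adjusted p = 1.9e-05) and kept its call at -0.64, and Rpl35a by -0.70, with -0.22 (adjusted p = 0.45). Translation factors gave 4 higher and 9 lower of 24, 2 and 9 inside batch 2, and 1 and 3 in that set. The proteasome gave 3 higher and 7 lower of 27 over the 21 arrays, but 6 and 4 inside batch 2 and 1 and 0 in that set. The V-ATPase gave 1 and 1 of 9, 3 and 1 inside batch 2, and 1 and 0 in that set.

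Several of the largest falls were likewise small without the arrays of high 18S signal. Rpa3, a subunit of the single-strand binding protein RPA, read 8.00, 20.9 and 205 with no stage word, against 15.5, 512 and 678 in immature kidney. Its immature arrays lay at 15.5 to 139.6 in batch 1 and 385 to 678 in batch 2. The change was -2.56 ± 0.50 over the 21 arrays (adjusted p = 0.00048) and -0.51 (adjusted p = 0.63) without the arrays of high 18S signal. Srsf5, a splicing factor, read 199.9 to 789.8 with no stage word, with 389 to 1162 and 2324 to 3632 on the immature arrays of batches 1 and 2. It changed by -2.10 and by -0.38 (adjusted p = 0.53). For Irf3, an interferon regulatory factor, the 2 changes were -2.40 and -0.73 (adjusted p = 0.52). For Pnn, a splicing-associated protein, they were -1.86 and 0.12 (adjusted p = 0.86). Kctd13, an adaptor of a ubiquitin ligase, was extreme, at 8749 to 12975 on the 7 immature arrays of batch 2, 54.7 to 471 on those of batch 1 and 106, 576 and 11387 (lowest, median, highest) with no stage word. It stood at -2.43 over the 21 arrays and 1.21 without those of high 18S signal, and its 2 other tested probe sets were not called. Its probe set and the 18S probe set were high on the same immature arrays.

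Alx1, Egfl7, Ifrd1, Rev1, Il15 and Ints6l were further large falls that did not pass without the arrays of high 18S signal. Over the 21 arrays they changed by -1.997, -1.91, -1.81, -2.12, -2.03 and -1.78. Without those arrays the changes were -0.89, -0.70, -0.55, -1.18, -1.39 and -1.41, with adjusted p of 0.31, 0.26, 0.31, 0.067, 0.051 and 0.057. Egfl7 is an endothelial matrix protein, Il15 a cytokine of natural killer cells and Rev1 a translesion DNA polymerase. Nktr, a cyclophilin-related protein of natural killer cells, kept its call. It read 48.7 to 121 with no stage word and 156 to 685 in immature kidney, without overlap, and changed by -2.16 ± 0.21 (adjusted p = 2.4e-07), -2.22 inside batch 2 and -1.47 without the arrays of high 18S signal (adjusted p = 0.0036).

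Of 12 tested clock genes 1 was called higher and 4 lower, with 2 and 4 inside batch 2, and in the set without high 18S signal 1 and 1. Dbp, a clock-driven transcription factor, read 83.5, 214 and 441 with no stage word, against 391, 761 and 1294 in immature kidney, overlapping only at the edge. It changed by -1.71 ± 0.22 (adjusted p = 6.4e-06), -1.51 inside batch 2 and -0.89 (adjusted p = 0.023) without the arrays of high 18S signal. Per2, a core repressor of the clock, read 9.90 to 65.8 with no stage word. Its immature arrays read 19.9 to 62.0 in batch 1 and 115 to 211 in batch 2, and it changed by -1.83 and, without the arrays of high 18S signal, by -0.61 (adjusted p = 0.22). Nr1d2, the nuclear receptor REV-ERB beta, changed by -1.49 and -0.39 (adjusted p = 0.13). Wee1, a clock-controlled kinase that delays mitosis, changed by -0.54 and -0.28 (adjusted p = 0.17). Hlf, a relative of Dbp, was the gene called higher, at 0.52, with 0.03 inside batch 2 (adjusted p = 0.9). Its second probe set was called higher as well, at 0.68 (adjusted p = 0.0013), with 0.79 inside batch 2. The labels give no hour of sampling.

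Growth hormone and IGF axis genes gave 6 higher and 3 lower of 21, 3 and 1 inside batch 2, and 0 and 1 without the arrays of high 18S signal. Igf1r, the IGF-1 receptor, changed by 0.62, 0.52 inside batch 2 and 0.60 (adjusted p = 0.063) without the arrays of high 18S signal. Igfals, which stabilises circulating IGF, changed by 0.69, with 0.10 (adjusted p = 0.75) there. Cish, a feedback inhibitor of growth hormone signalling, changed by 1.05 over the 21 arrays (adjusted p = 0.007) and passed in neither smaller set (0.38 and 1.31), and Stat5b, the transcription factor of that pathway, by 0.37, likewise in neither. Steroid and thyroid response genes gave 8 higher and 2 lower of 22. Their counts were 5 and 2 inside batch 2, and 2 and 1 without the arrays of high 18S signal. Cholesterol and lipid synthesis genes gave 5 higher and 7 lower of 26, but 7 and 5 inside batch 2 and 2 and 3 without the arrays of high 18S signal. Soat1, which esterifies cholesterol, rose by 0.80, 0.90 and 0.75, and Sqle, squalene epoxidase of cholesterol synthesis, was lower at -0.74, -0.45 and -0.56, both past the threshold in each fit.

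Genes of injury and repair gave 5 higher and 6 lower of 32, 4 and 6 inside batch 2, and 3 and 0 without the arrays of high 18S signal. Immediate early and heat shock genes gave 6 and 8 of 41, 5 and 7 inside batch 2, and 1 and 2 without those arrays. Anxa1, the anti-inflammatory annexin, changed by -1.01, and by -0.36 (adjusted p = 0.36) without the arrays of high 18S signal. S100a10, the partner of annexin A2, changed by -0.73 and -0.15 (adjusted p = 0.64).

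Markers of cells other than tubules were called in both directions. Of 10 endothelial genes 2 were called higher and 0 lower, with 1 and 1 in each smaller set. Pecam1, the adhesion molecule of vessel lining, rose by 0.65, 0.55 and 0.48, past the threshold each time. Its groups did not overlap over the 21 arrays. Of 13 smooth muscle and mesangial genes 2 were called higher and 3 lower. Their counts were 2 and 0 inside batch 2, and 1 and 1 without the arrays of high 18S signal. Pdgfrb, the PDGF receptor of pericytes and mesangium, changed by 0.69, with 0.24 (adjusted p = 0.51) without those arrays. Podocyte genes gave 2 higher and 2 lower of 6, 0 and 2 inside batch 2, and 1 and 0 without those arrays. Of 13 immune cell genes 2 were called higher and 1 lower, with 3 and 1 inside batch 2 and 1 and 0 without those arrays. Cd4, which in the rat is on T helper cells and macrophages, changed by 0.70, 0.71 inside batch 2 and 0.30 (adjusted p = 0.31) without those arrays. The summed immune list spanned 5045 to 7872 with no stage word and 3245 to 7679 in immature kidney. Class I and interferon genes gave 5 higher and 1 lower of 14. Their counts were 3 and 2 inside batch 2, and 1 and 0 without the arrays of high 18S signal. Genes of other tissues gave 3 higher and 0 lower of 18, 3 and 1 inside batch 2, and 0 and 1 without those arrays. Their summed level was 5018 to 8344 with no stage word and 3622 to 7316 in immature kidney.

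Haemoglobin and haem genes gave 0 higher and 3 lower of 13. Their counts were 1 and 3 inside batch 2, and 1 and 2 without the arrays of high 18S signal. Hbb, a beta-globin gene, read 3438 to 7704 with no stage word and 6163 to 11944 in immature kidney and changed by -0.69, -0.55 and -0.88, past the threshold each time. Hbb-b1, a near-identical copy, changed by -0.52, and Tfrc, the transferrin receptor, by -1.02. The change of Tfrc reversed its direction without the arrays of high 18S signal. How much globin signal came from blood left in the tissue was not tested.

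Class II genes are given as levels, since their partner chose the arrays. The invariant chain Cd74 read 4468 to 6970.4 with no stage word and 3585 to 5829.7 in immature kidney. RT1-Ba, the alpha chain that pairs with RT1-Bb, read 645.9 to 1112.5 and 456.2 to 1029 in the same order. RT1-Da, the alpha chain of the RT1.D molecule, read 3749 to 5239.9 with no stage word and 2865 to 5647 in immature kidney. The ranges of the 2 groups overlapped for all 3 genes.

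The 6 arrays above the RT1-Bb limit, 3 with no stage word and 3 immature, were left out by the rule and repeat the comparison. All 3 with no stage word lay in batch 2 and all 3 immature ones in batch 1, so batch and group cannot be told apart among these 6. In a model of all 55 arrays, 284 of 6555 probe sets (4.33%) passed between them, and 161 (2.46%) with batch as a block. Cyp2c11 read 2970.1 to 3372 with no stage word and 20.8 to 239 in immature kidney, a change of 5.03 (adjusted p = 2.5e-09), and Col1a1 read 503 to 1342 and 4025 to 5832, a change of -2.58 (adjusted p = 9.3e-07). Gc (1.76), Mbl1 (2.29), Nefm (1.51), Ldhd (1.04), Slc22a2 (1.98), Col1a2 (-1.89), Col3a1 (-1.55), Cdk1 (-1.30), Top2a (-1.14) and Cdc20 (-0.72) also passed there in the same direction. Col5a2 gave -0.87 (adjusted p = 0.11) and Agtr1a -0.41 (adjusted p = 0.62). Several other genes that passed in all 3 fits kept their direction there but did not pass. Among them were Col4a5 (-0.63), Ctsk (-0.41), Gpc3 (-0.77), Dbp (-0.74), Akr7a3 (0.37), Ctsb (0.52), Anpep (0.30) and Glul (0.65). Their adjusted p ran from 0.097 for Glul to 0.59 for Ctsk. Dcn, Eln, Ctss and Calb1 did pass, in the same direction.

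Cxcl13 differed between the 2 classes of arrays. Below the RT1-Bb limit it was 139 to 320.2 with no stage word and 36.7 to 74.2 in immature kidney, and above the limit it read 35.5 to 62.1 with no stage word and 34.5 to 80.8 in immature kidney, where the groups overlap. The difference of the 2 changes, below minus above the limit, was 1.87 ± 0.35 (SE, adjusted p = 0.0039). With batch as a block it was 1.69 (adjusted p = 0.19). Over all probe sets 56 of 6555 (0.854%) passed this test of the difference, and 1 with batch as a block (0.0153%). That 1 was Mmp14, a membrane-bound collagenase, named after its values were seen, which changed by 0.02 below the limit and by -1.25 above it in the model without the block.

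**Figure D4:**
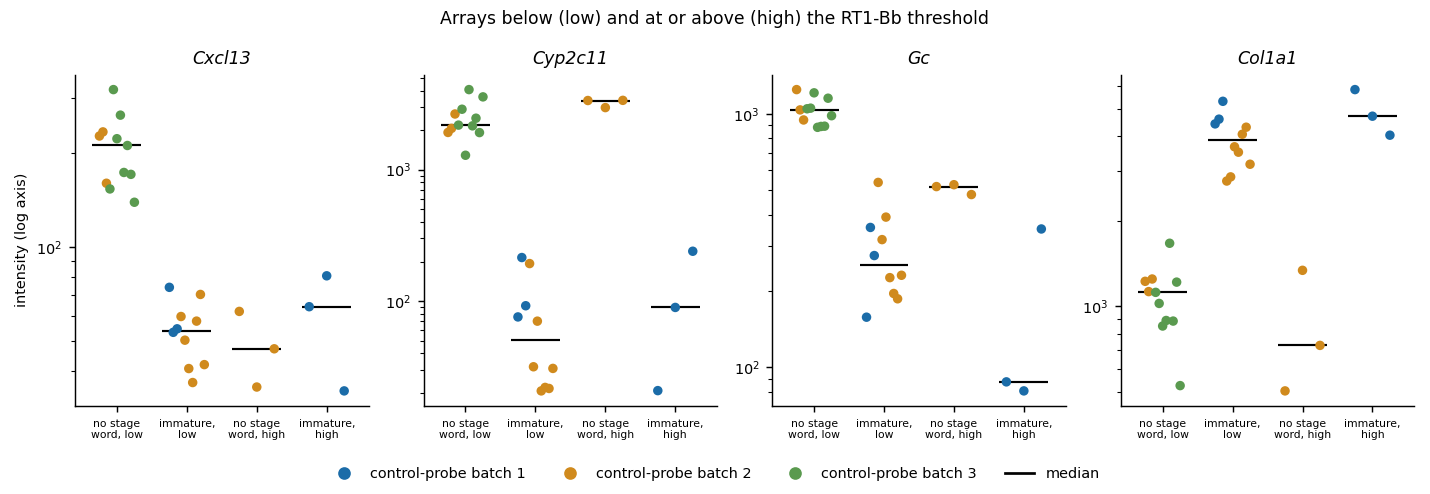
Deposited intensity (log axis) of Cxcl13, Cyp2c11, Gc and Col1a1 on arrays below (low) and above (high) the RT1-Bb limit, with no stage word left of immature in each class, 1 point per array coloured by control-probe batch and a bar at the median. The 11 low arrays with no stage word stand above every other array for Cxcl13, while Cyp2c11, Gc and Col1a1 separate no stage word from immature kidney in both classes.

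Arrays described as young (11) and mature (11), also below the RT1-Bb limit, set these levels beside labelled stages. The GAPDH 3′/5′ signal ratio was 7.18 on mature replicate 1, 3.47 on replicate 9 and 1.45 on replicate 5, and at most 1.22 on the other arrays below the limit. Between no stage word and young, 4 of 6555 probe sets passed (0.061%), and between mature and no stage word 26 (0.397%), against 2134 (32.6%) between no stage word and immature in the same model, or 683 (10.4%) with batch as a block. With arrays of a ratio above 1.4 left out, a setting chosen after seeing the data (these 3 and mature replicate 12 above the limit), the counts were 8 (0.122%) between no stage word and young and 17 (0.259%) between mature and no stage word. These comparisons share arrays. The young arrays lay in batches 2 and 3, like those with no stage word, and the mature arrays in batch 3 except replicate 5 in batch 1. No immature array lay in batch 3. Of the young and mature arrays only young replicate 12 was above 3000 in the 18S signal, against all immature arrays of batch 2. Batch and 18S signal therefore differ along with the stage label, and their part in the gap between these counts was not tested. The median of Cyp2c11 was 2185 with no stage word, 1655 on young arrays and 1899 on mature arrays. That of Col1a1 was 1122, 1721 and 621 in the same order, and that of Col3a1 484, 870.0 and 397. For Top2a it was 170.4, 312 and 143, and for Cdk1 110.1, 167 and 89.8. Over the other 8 mature arrays the medians were 2003 for Cyp2c11, 618 for Col1a1, 413 for Col3a1, 146 for Top2a, 100.3 for Cdk1 and 214 for Cxcl13. For these collagen and mitosis genes the level with no stage word lay between those of the mature and the young arrays. Cxcl13 stood at 212, 113 and 169.8, with the level of the young arrays ranging over 67.0 to 149.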

How the data were processed

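The authors deposited 1 table of linear Affymetrix intensities for 55 rat kidney arrays (8799 probe sets, 59 of them controls). How the probe sets were summarised and scaled is not given in the sources used here. Means trimmed by 2% at each end were 500.0 on all 21 arrays, and the arrays' median intensities were 136.0 to 179.6 with no stage word and 144.4 to 172.6 in immature kidney. The values are linear, not log values. Each intensity was taken as log2(intensity + 15.82), the added value being 0.1 of the median of all values. Control probe sets and those with a mean log2 value below the 25th percentile were left out, which left 6555. Gene symbols came from the platform annotation, where 7018 probe sets had 1 symbol, 308 several and 1473 none, and 6994 symbols were matched to RefSeq (GRCr8). A gene was represented by its brightest probe set of 1 symbol.

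Groups were compared with limma 3.58.1 in R 4.3.3 (lmFit and eBayes, two-sided, Benjamini-Hochberg over all 6555 probe sets, adjusted p of 0.05), with no covariate. The RT1-Bb-high arrays and the difference between classes were tested in a model of all 55 arrays. Batches came from Ward clustering of 42 control probe sets, in 3 clusters. No batch, date or animal is given in the labels, so replicates were numbered in accession order and paired nothing. The scripts were tested on simulated data with known changes. The number of arrays limits the precision.

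The members, the 38 gene lists and the tests were chosen with earlier results of these data known. Named genes were the 15 largest rises and 15 largest falls past the threshold both without covariate and with batch as a block, up to 4 members of each list by smallest p, and every passing member of the fibrillar collagen, mitosis, renin-angiotensin, eicosanoid and clock lists. Alternatives were batch as a block, the fit inside batch 2, other samples, added values, filters, normalizations and limma settings, and each array left out in turn. Promoter sequences came from RefSeq (GRCr8).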

Additional observations from a re-analysis of the deposited data

Results flagged for a closer look

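In 8 of the 135 named genes 1 of the 10 immature arrays lay far from the other 9 by Dixon's test on log2 values; chance gives about 1 in 20 such groups, and the 11 arrays with no stage word were too many for this test. Immature replicate 4 was low for Alx1 (log2 5.26, intensity 22.5, others 166.0 to 416), Gsta1 (log2 11.02, 2067, others 3579.7 to 6016) and Gstp1 (log2 11.39, 2659, others 4531 to 5709). It was high for Alox15 (log2 10.00, 1011, others 307 to 542) and Dao (log2 13.24, 9676, others 4579 to 6112). Immature replicate 5 was low for Akr7a3 (log2 12.11, 4414, others 6715 to 8715), Glul (log2 12.26, 4902, others 6883 to 9259.9) and Ints6l (log2 7.23, 134, others 282 to 425). Both arrays belong to control-probe batch 1.

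The change with no stage word relative to immature kidney differed between arrays below and above the RT1-Bb limit for 3 named genes, by limma's test of the difference over 55 arrays (adjusted p = 0.0039 for Cxcl13, 0.018 for Dut and 0.047 for Tfrc). Below minus above the limit, the difference was 1.87 for Cxcl13, -1.46 for Dut and -2.62 for Tfrc. None passed with batch as a block (adjusted p = 0.19 for Cxcl13, and 1 for both Dut and Tfrc).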

How the results depend on the processing

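No paired analysis was possible because the replicate numbers only follow accession order and tie no array to another. The 2359 calls became 700 without the arrays of high 18S signal, 683 in a model of all 55 arrays with batch as a block (chosen after seeing the data), 4327 with array weights and 1386 at an adjusted p of 0.01; the cause was not tested. Other settings gave 1691 to 2466 calls, and leaving out each array in turn gave 2029 to 2783. Of the 135 named genes, all kept direction and call with median centring, and 130 with quantile normalization, where the other 5 lost the call. The median over all probe sets was 0.08, 0.06 with quantile normalization and 0.05 with median centring. With batch as a block 102 of the 135 kept direction and call and 28 lost the call, and inside batch 2 these counts were 110 and 20. In both, Enpep (-0.26), Jund (-0.92), Slco1a1 (-0.11) and Sparc (-0.20) reversed, none past the threshold inside batch 2, and Jund past it with batch as a block (adjusted p = 0.038). Without the arrays of high 18S signal 56 kept direction and call, 71 lost the call and 8 reversed: Hmmr (0.08), Kctd13 (1.21), Klk1 (-0.081), Klk1c12 (-0.10), Lama3 (0.084), Pnn (0.12), Slc12a1 (0.16) and Tfrc (0.24). In the 55-array model with batch as a block 85 kept direction and call, 47 lost the call, 1 gained it, and Col5a1 (-0.0041) and Jund (-0.68) reversed. Of the 134 named genes called, 129 kept the call without each array in turn. Lama1 lost it without immature replicate 4, Cyp4f6 (adjusted p up to 0.058) without immature replicate 7, 8 or 12, and Slco1a1 (up to 0.054) without replicate 7, 10 or 14 with no stage word. Cma1 (up to 0.085) lost it without any 1 of 14 arrays and Kctd13 (up to 0.081) of 16. Above the RT1-Bb limit the 284 calls became 161 with batch as a block and 127 to 286 without 1 array, falling to 127 without immature replicate 1 and to 157, 132 and 146 without replicate 4, 8 and 12 with no stage word. The 56 calls of the difference became 1 with batch as a block and 12 to 98 without 1 array: 27 and 98 without immature replicates 1 and 3, and 12, 15 and 16 without replicates 4, 8 and 12 with no stage word. At an unadjusted p under 0.05 there were 1308, and 289 with the block.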
